A study of Mus musculus with 4 samples.

Results

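The 32 G2/M and mitosis genes described here carry a cell from the end of DNA replication through chromosome segregation and cytokinesis. They were chosen by name and found by gene symbol among the 53715 Ensembl gene IDs of the deposited count table, and all 32 were present. They were measured in invariant natural killer T (iNKT) cells of the mouse thymus, which are T cells with a semi-invariant receptor for lipids presented by CD1d. The Mettl3 knockout group comprised 2 libraries from Mettl3 fl/fl CD4-cre mice, in which Cre acts from the CD4+CD8+ thymocyte stage and hence in all later alpha-beta T lineage cells. The METTL3 protein catalyses the methylation of adenosine in mRNA to m6A. The wild-type (WT) group comprised 2 libraries, and the mice of both groups were labelled C57BL/6, aged 6 to 8 weeks. In both groups 7AAD-negative cells positive for a CD1d tetramer and TCR beta were sorted, and cDNA was made by Smart-seq2, a full-length method that does not mark strand. No label says that the libraries of a group came from separate animals, so the p-values speak only to the spread among these 4 libraries, and that spread may be technical.

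Counts over genes totalled 24374587 to 25402792 in the knockout libraries and 25931610 to 28316016 in the WT libraries. The members held 59 to 7337 counts per gene and library, and all 32 passed the filter on low counts. Levels are library-scaled counts (CPM) after TMM scaling, given for replicate 1 and then replicate 2 of a genotype. Fold changes are knockout over WT from edgeR's quasi-likelihood test, and the calls used a threshold of 0.05 on the p adjusted by Benjamini-Hochberg over 14185 tested genes. The targeted gene Mettl3 was at 78.1 and 91.4 CPM in the knockout libraries, against 92.2 and 123.6 CPM in the WT libraries. Its log2 fold change was -0.35 (edgeR adjusted p = 0.357), and counts over the whole gene also take in exons outside the deleted part, so they do not check the deletion. The T cell gene Cd3e and Zbtb16, which encodes the iNKT factor PLZF, were present in all 4 libraries.

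Entry into mitosis is driven by CDK1 bound to cyclins A and B, which CDC25 phosphatases switch on. Aurora and Polo-like kinases then build the spindle, the spindle checkpoint holds back the anaphase-promoting complex until every chromosome is attached, and the destruction of cyclin B and securin starts chromosome separation. Transcripts of these genes are kept low in resting and G1 cells by the DREAM complex and raised in G2 by complexes of MuvB with B-MYB and FOXM1, which act through the CHR element of their promoters, often beside CCAAT boxes bound by NF-Y. In the thymus, iNKT precursors expand in a burst of division soon after selection, and mature NKT1 cells are largely out of cycle.

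The shared promoter elements were looked for in RefSeq promoter windows of build GRCm38.p6, which run from 250 bases before to 50 bases after a gene's start. Of the 32 members 25 had at least 1 window, 27 windows in all, and Ccna2, Cdc25c, Aurkb, Kif20a, Tpx2, Dlgap5 and Foxm1 had none in the table. Ect2 and Prc1 each had more than 1 window. These overlapped almost fully and were counted separately, so the shares below are of windows, not of genes. The CHR was searched as TTTGAA or TTTAAA on both strands and the CCAAT box as CCAAT on both strands. A CHR was present in 23 of 27 member windows (85.2%), against 27.6% of all 32851 windows in the table. A CCAAT box was present in 81.5% of member windows, against 37.4% of all windows, and both motifs in 74.1% against 10.7%. The form TTTGAA was in 74.1% of member windows and the form TTTAAA in 29.6%, against 17.9% and 13.2% of all windows. Some windows held both forms and count in both shares. An E2F motif (TTTCGCGC or TTTGGCGC, both strands) was in 1 member window, that of Cdk1, which is 3.70% of member windows against 0.813% of all windows. No overlap between the motifs is possible beyond single shared letters at their ends, and a match is a description of letters, not a bound site. The 150 bases before the start are printed for 4 members that carry both motifs and stand at different places in the comparison below: Mki67, which rose, Kif11, just outside the threshold, Plk1, whose genotypes did not overlap, and Cdc20, whose genotypes did. They lie at chr7:135716380-135716529 (minus strand, Mki67), chr19:37376232-37376381 (plus strand, Kif11), chr7:122159285-122159434 (plus strand, Plk1) and chr4:118437344-118437493 (minus strand, Cdc20). Capitals mark the CHR and the CCAAT box on either strand, so a CHR on the other strand reads TTCAAA, and there the NF-Y box reads ATTGG.
Mki67: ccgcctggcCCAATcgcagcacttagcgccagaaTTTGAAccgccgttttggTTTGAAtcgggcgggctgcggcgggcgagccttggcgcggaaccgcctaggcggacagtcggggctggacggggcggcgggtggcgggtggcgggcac
Kif11: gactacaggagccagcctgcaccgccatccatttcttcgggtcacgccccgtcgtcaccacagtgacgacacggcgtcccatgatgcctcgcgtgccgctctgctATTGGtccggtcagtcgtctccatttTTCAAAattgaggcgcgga
Plk1: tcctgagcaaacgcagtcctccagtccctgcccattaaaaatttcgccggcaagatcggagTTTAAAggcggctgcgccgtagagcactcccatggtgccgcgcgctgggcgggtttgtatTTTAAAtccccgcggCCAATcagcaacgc
Cdc20: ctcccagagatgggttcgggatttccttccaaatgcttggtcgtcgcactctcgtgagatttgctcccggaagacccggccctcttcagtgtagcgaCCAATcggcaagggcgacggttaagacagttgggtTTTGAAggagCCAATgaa
Within the printed bases, the CHR nearest to the start ended 14 bases before it in Kif11 and 13 bases before it in Cdc20. The distances were 24 bases in Plk1 and 93 bases in Mki67. The searched window of Plk1 also held the form TTTGAA, which is not among the printed bases.

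In the Mettl3 knockout the proliferation marker Mki67 and the spindle assembly gene Dlgap5 rose, and no member fell. Most of the others lay somewhat higher in the knockout without passing the test. The log2 fold change was positive in 25 of 32 members, against 51.3% of all tested genes, and its median over the members was 0.30, against 0.02 over all tested genes. The 2 members called higher make up 6.25% of the list, against 1.09% of all tested genes, while 0 members were called lower, against 1.51%; in either direction 2.59% of tested genes were called. For the members edgeR gave an unadjusted p under 0.05 for 10 higher genes and 0 lower genes, where 10.5% and 9.69% of all tested genes reached it. DESeq2 called 4 members higher and 0 lower, while limma voom called 0 in either direction and so made neither call.

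Whether the libraries of a gene separate by genotype gives a similar count. Both knockout libraries lay above both WT libraries in 16 members, against 25.4% of all tested genes. Both lay below in 0 members, against 24.9% of all tested genes, and in the other 16 members the genotypes overlapped. Summed over the 32 members, the level was 2238 and 2374 CPM in the knockout libraries, against 1947 and 1631 CPM in the WT libraries, a ratio of means of 1.29. The members thus took 0.227% and 0.243% of the counts in the knockout, against 0.193% and 0.158% in WT. The knockout libraries stood together and above both WT libraries, while WT replicate 2 stood below WT replicate 1. Leaving out WT replicate 2 gave a ratio of 1.182, and leaving out WT replicate 1 gave 1.40. These are bulk samples, in which a larger share of dividing cells and more transcript per dividing cell cannot be told apart.

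**Figure D1:**
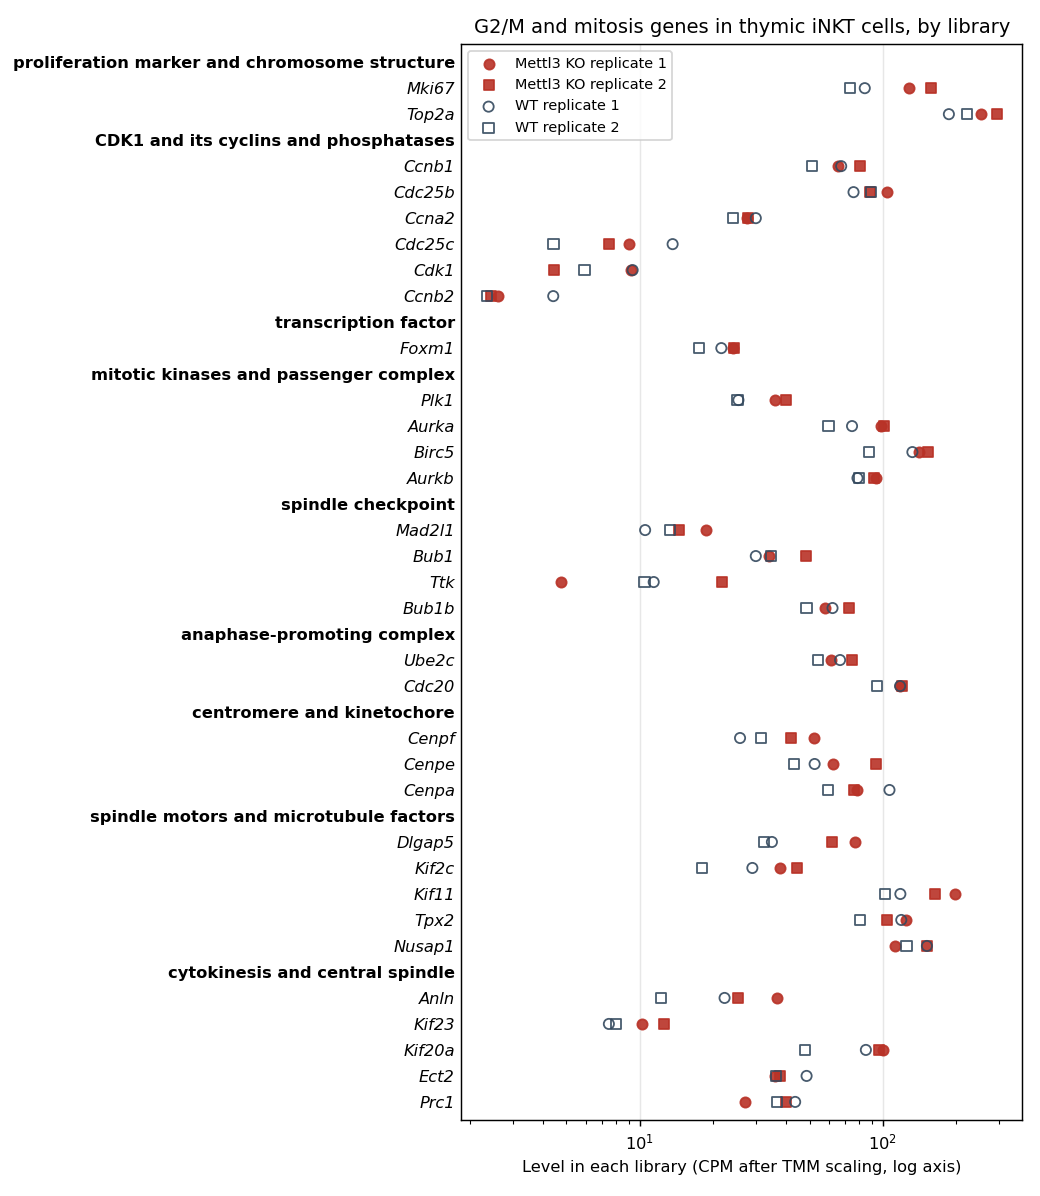
Level of each member in each library (CPM after TMM scaling, log axis), with knockout libraries filled and WT libraries open, grouped by the role of the gene. For 16 of the 32 genes both filled symbols lie to the right of both open ones, and for 0 genes to the left.

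The gene of the nuclear antigen Ki-67, which coats mitotic chromosomes and is lost from resting cells, was one of the members that rose. Mki67 (ENSMUSG00000031004.8, a protein-coding gene on the minus strand of GRCm38 chromosome 7, 135689784 to 135716361) was at 128.2 and 157.7 CPM in the knockout libraries, against 84.2 and 73.2 CPM in the WT libraries. Even the lower knockout library was well above the higher WT library. This is a 1.81-fold difference, a log2 fold change of 0.86 with an SE of 0.16 and a 95% interval of 0.47 to 1.24 (edgeR adjusted p = 0.0463). Top2a, the topoisomerase that untangles replicated chromosomes, was at 252.0 and 294.4 CPM in the knockout libraries, against 186.8 and 221.5 CPM in the WT libraries. The genotypes of Top2a did not overlap, and its log2 fold change of 0.42 (SE 0.14) missed the threshold (edgeR adjusted p = 0.149).

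Dlgap5, which encodes HURP, a protein that stabilises the microtubule fibres at kinetochores, had the largest log2 fold change of the 32 members. Dlgap5 (ENSMUSG00000037544.14, a protein-coding gene on the minus strand of GRCm38 chromosome 14, 47387779 to 47418407) was at 77.0 and 61.7 CPM in the knockout libraries, against 34.96 and 32.4 CPM in the WT libraries. The WT libraries lay close to each other and far below both knockout libraries. This is a 2.06-fold difference, a log2 fold change of 1.04 with an SE of 0.20 and a 95% interval of 0.57 to 1.51 (edgeR adjusted p = 0.0463). With any 1 of the 4 libraries left out, edgeR called 0 members. The adjusted p was then 0.115 to 0.272 for Mki67 and 0.139 to 0.243 for Dlgap5, while 5 to 10 members had an unadjusted p under 0.05 in the higher direction and 0 to 1 in the lower.

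Among the other spindle motors and microtubule factors, Kif11 had the smallest p. This gene encodes the kinesin EG5, which slides microtubules apart to separate the spindle poles. It stood at 198.7 and 163.4 CPM in the knockout libraries, against 118.0 and 102.0 CPM in the WT libraries. The groups were clearly apart, yet the log2 fold change of 0.72 (SE 0.15, 95% interval 0.36 to 1.08) narrowly missed the threshold (edgeR adjusted p = 0.0589). Kif2c, the kinesin MCAK that depolymerises microtubules, was at 37.7 and 44.4 CPM in the knockout libraries, against 29.1 and 18.1 CPM in the WT libraries (log2 fold change 0.79, SE 0.27; edgeR adjusted p = 0.167). Its WT libraries differed from each other more than its knockout libraries did. Tpx2, an activator of Aurora A on the spindle, was at 124.8 and 103.7 CPM in the knockout libraries, against 119.0 and 80.4 CPM in the WT libraries (log2 fold change 0.19; edgeR adjusted p = 0.675). Nusap1, which bundles spindle microtubules, was at 112.5 and 151.8 CPM in the knockout libraries, against 151.7 and 125.1 CPM in the WT libraries (log2 fold change -0.07; edgeR adjusted p = 0.885). In both of these the genotypes overlapped.

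DESeq2 called 4 members higher, adding Kif11 and Aurka to Mki67 and Dlgap5, where it called 4.69% of all tested genes higher. With total-count scaling edgeR called 3 members higher, adding Kif11, against 1.46% of all tested genes, and with genes kept at 5 CPM or more in 2 libraries it called the same 3, against 3.41% of the 9833 genes then tested. Limma voom called 0 members higher, against 0.712% of all tested genes, with an unadjusted p under 0.05 for 11 of them. Over all the settings run, the libraries left out included, both log2 fold changes stayed positive, while the adjusted p ran from 0.000119 to 0.272 for Mki67 and from 0.000253 to 0.243 for Dlgap5.

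**Figure D2:**
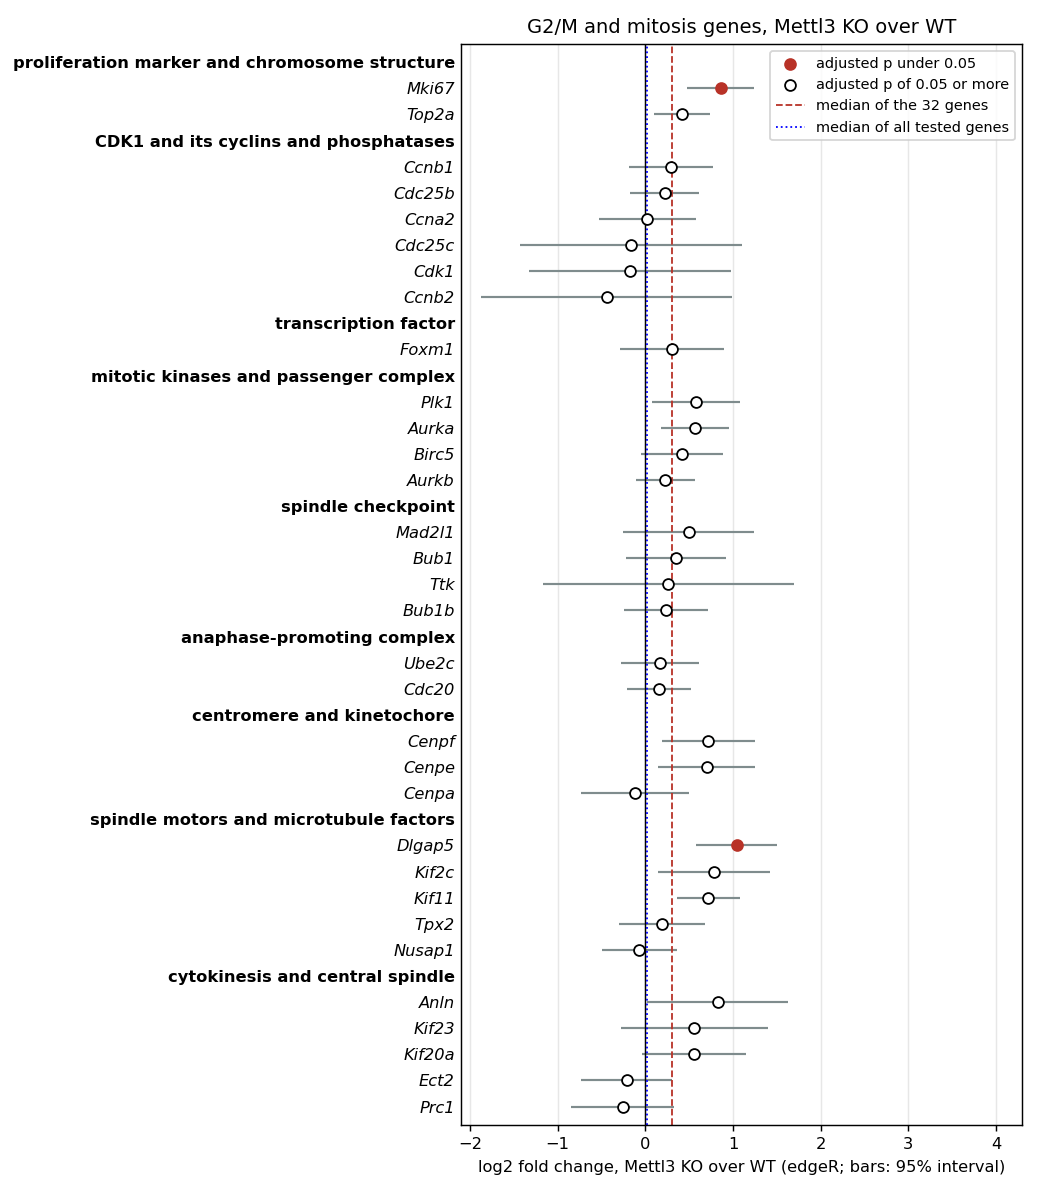
Log2 fold change of each member, knockout over WT, from edgeR, with bars for the 95% interval, grouped by role. Filled points are Mki67 and Dlgap5, at 0.86 and 1.04, and the median of the 32 genes (0.30) lies to the right of the median of all tested genes (0.02).

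All 4 mitotic kinase and passenger complex genes had both knockout libraries above both WT libraries, although none of them passed the test with edgeR. This order was seen in 25.4% of all tested genes. Aurka encodes Aurora A, which matures the centrosomes. It was at 98.3 and 101.5 CPM in the knockout libraries, against 74.7 and 59.7 CPM in the WT libraries (log2 fold change 0.57, SE 0.17; edgeR adjusted p = 0.122). The knockout replicates of Aurka were nearly equal, and the gene passed with DESeq2 (adjusted p = 0.0342, with a range of 0.0342 to 0.402 over the alternatives). Plk1, the Polo-like kinase of mitotic entry and spindle assembly, was at 35.9 and 40.0 CPM in the knockout libraries, against 25.5 and 25.2 CPM in the WT libraries (log2 fold change 0.58, SE 0.21; edgeR adjusted p = 0.186). Here the WT replicates were nearly equal. Birc5, which encodes the passenger subunit survivin, was at 141.2 and 153.7 CPM in the knockout libraries, against 132.2 and 87.4 CPM in the WT libraries (log2 fold change 0.42; edgeR adjusted p = 0.296). Its WT replicate 1 came close to the knockout libraries, and without WT replicate 2 the log2 fold change was 0.15. Aurkb, the kinase subunit of the passenger complex, was at 93.5 and 91.7 CPM in the knockout libraries, against 78.6 and 79.8 CPM in the WT libraries (log2 fold change 0.23; edgeR adjusted p = 0.439). Replicates of Aurkb agreed closely in both genotypes, and its log2 fold change was 0.20 to 0.24 with each library left out.

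For CDK1, its cyclins and its phosphatases, all 6 genes overlapped between the genotypes, with a median log2 fold change of -0.07. Over all tested genes 25.4% had both knockout libraries above both WT libraries and 24.9% had both below, and the rest overlapped. Cyclin B1, the main partner of CDK1, is encoded by Ccnb1, which was at 65.3 and 80.5 CPM in the knockout libraries, against 67.4 and 51.0 CPM in the WT libraries (log2 fold change 0.30, 95% interval -0.18 to 0.77). Ccna2, the gene of cyclin A2, was at 27.5 and 27.8 CPM in the knockout libraries, against 30.0 and 24.2 CPM in the WT libraries (log2 fold change 0.02, 95% interval -0.52 to 0.57). The intervals of these cyclins take in both 0 and the median of the members. Cdc25b, whose phosphatase starts CDK1 activation at the centrosome, was at 103.8 and 88.2 CPM in the knockout libraries, against 75.7 and 89.5 CPM in the WT libraries (log2 fold change 0.22). The other 3 genes of the set had few counts and varied widely between replicates. Cdk1 was at 9.17 and 4.45 CPM in the knockout libraries, against 9.35 and 5.93 CPM in the WT libraries (log2 fold change -0.17, 95% interval -1.33 to 0.98). Cdc25c was at 9.06 and 7.46 CPM in the knockout libraries, against 13.7 and 4.42 CPM in the WT libraries (log2 fold change -0.16, 95% interval -1.43 to 1.11). Ccnb2, the gene of cyclin B2, was at 2.604 and 2.45 CPM in the knockout libraries, against 4.41 and 2.35 CPM in the WT libraries (log2 fold change -0.44, 95% interval -1.87 to 0.99). The interval of Cdc25c takes in the log2 fold change of Dlgap5 (1.04), and those of Cdk1 and Ccnb2 end just below it. Foxm1, the transcription factor of the G2/M programme, was at 24.3 and 24.4 CPM in the knockout libraries, against 21.7 and 17.6 CPM in the WT libraries. Its genotypes did not overlap, and the log2 fold change came to 0.30 (95% interval -0.29 to 0.89; edgeR adjusted p = 0.567).

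Of the 3 centromere and kinetochore members, Cenpf and Cenpe were separated by genotype and Cenpa was not. Both knockout libraries lay above both WT libraries in 25.4% of all tested genes. Cenpf, a large protein of the outer kinetochore, had 52.0 and 42.0 CPM in the knockout libraries, against 25.9 and 31.4 CPM in the WT libraries (log2 fold change 0.72, SE 0.22; edgeR adjusted p = 0.136). Cenpe, the kinesin that carries chromosomes to the spindle equator, had 62.3 and 93.4 CPM in the knockout libraries, against 52.4 and 43.1 CPM in the WT libraries (log2 fold change 0.70, SE 0.24; edgeR adjusted p = 0.160). The lower knockout library of Cenpe was nearer to the WT libraries than to its replicate. Cenpa, the histone H3 variant of centromeres, had 78.4 and 75.7 CPM in the knockout libraries, against 106.4 and 59.6 CPM in the WT libraries (log2 fold change -0.12; edgeR adjusted p = 0.862). The WT replicates of Cenpa lay on either side of both knockout libraries.

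The 4 spindle checkpoint members all had positive log2 fold changes, against 51.3% of all tested genes. Only in Mad2l1 did the genotypes not overlap, with the knockout above, as in 25.4% of all tested genes. Mad2l1 encodes MAD2, which inhibits CDC20, and was at 18.8 and 14.5 CPM in the knockout libraries, against 10.5 and 13.3 CPM in the WT libraries (log2 fold change 0.49; edgeR adjusted p = 0.448). Bub1, a kinase that recruits the checkpoint to kinetochores, was at 34.1 and 48.3 CPM in the knockout libraries, against 30.0 and 34.6 CPM in the WT libraries (log2 fold change 0.35; edgeR adjusted p = 0.479). Bub1b, the gene of the checkpoint protein BUBR1, was at 58.0 and 72.5 CPM in the knockout libraries, against 62.1 and 48.5 CPM in the WT libraries (log2 fold change 0.23; edgeR adjusted p = 0.590). Bub1 and Bub1b thus overlapped through 1 knockout library each. Ttk, the checkpoint kinase MPS1, was at 4.74 and 21.8 CPM in the knockout libraries, against 11.4 and 10.5 CPM in the WT libraries (log2 fold change 0.26; edgeR adjusted p = 0.866). The knockout replicates of Ttk differed 4.59-fold, the widest replicate gap of any member in that genotype, and leaving out knockout replicate 2 put its log2 fold change at -1.21, leaving out replicate 1 at 0.99.

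The 2 anaphase-promoting complex members did not separate, while 25.4% of all tested genes separated with the knockout above and 24.9% with it below. Cdc20, the activator of the complex at anaphase, was at 117.1 and 119.7 CPM in the knockout libraries, against 117.7 and 94.8 CPM in the WT libraries (log2 fold change 0.15, 95% interval -0.21 to 0.52). Ube2c, its ubiquitin-conjugating enzyme, was at 61.2 and 74.7 CPM in the knockout libraries, against 66.7 and 54.1 CPM in the WT libraries (log2 fold change 0.17, 95% interval -0.28 to 0.62). In both genes WT replicate 1 lay between the knockout libraries.

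Cytokinesis members pointed both ways. Anln, the gene of anillin, a scaffold of the contractile ring, was at 36.6 and 25.4 CPM in the knockout libraries, against 22.3 and 12.3 CPM in the WT libraries (log2 fold change 0.83, SE 0.34; edgeR adjusted p = 0.233). Kif20a, the kinesin MKLP2, was at 100.1 and 96.7 CPM in the knockout libraries, against 85.1 and 47.7 CPM in the WT libraries (log2 fold change 0.56; edgeR adjusted p = 0.275). Kif23, the kinesin MKLP1 of the central spindle, was at 10.2 and 12.6 CPM in the knockout libraries, against 7.47 and 7.96 CPM in the WT libraries (log2 fold change 0.56; edgeR adjusted p = 0.443). The genotypes of these 3 kinesin and scaffold genes did not overlap, with WT replicate 2 of Anln and Kif20a well below WT replicate 1. Among all tested genes 25.4% had the knockout libraries above in this way. Prc1, which cross-links the central spindle, was at 27.2 and 40.0 CPM in the knockout libraries, against 43.6 and 36.6 CPM in the WT libraries (log2 fold change -0.26; edgeR adjusted p = 0.625). Ect2, the exchange factor that activates RhoA at the division site, was at 35.9 and 37.6 CPM in the knockout libraries, against 48.6 and 36.3 CPM in the WT libraries (log2 fold change -0.21; edgeR adjusted p = 0.654). In both of them knockout replicate 2 lay between the WT libraries.

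Libraries of 1 genotype differed by a median of 1.21-fold over the members in the knockout and 1.24-fold in WT, close to the size of the median change between genotypes. Knockout replicate 2 was above replicate 1 in 19 members, and WT replicate 1 was above WT replicate 2 in 25. The widest WT gap was 3.09-fold, for Cdc25c. Without WT replicate 2 the median log2 fold change of the members was 0.20 and 23 of 32 were positive, and without WT replicate 1 these were 0.44 and 31 of 32. Of the 7 members with a negative value, Cdk1, Ccnb2, Cdc25c, Cenpa, Nusap1 and Ect2 were positive with some library left out, and Prc1 stayed negative, from -0.57 to -0.0046. The sign of the positive members depended on a library for Ccna2, Ttk and Tpx2.

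**Figure D3:**
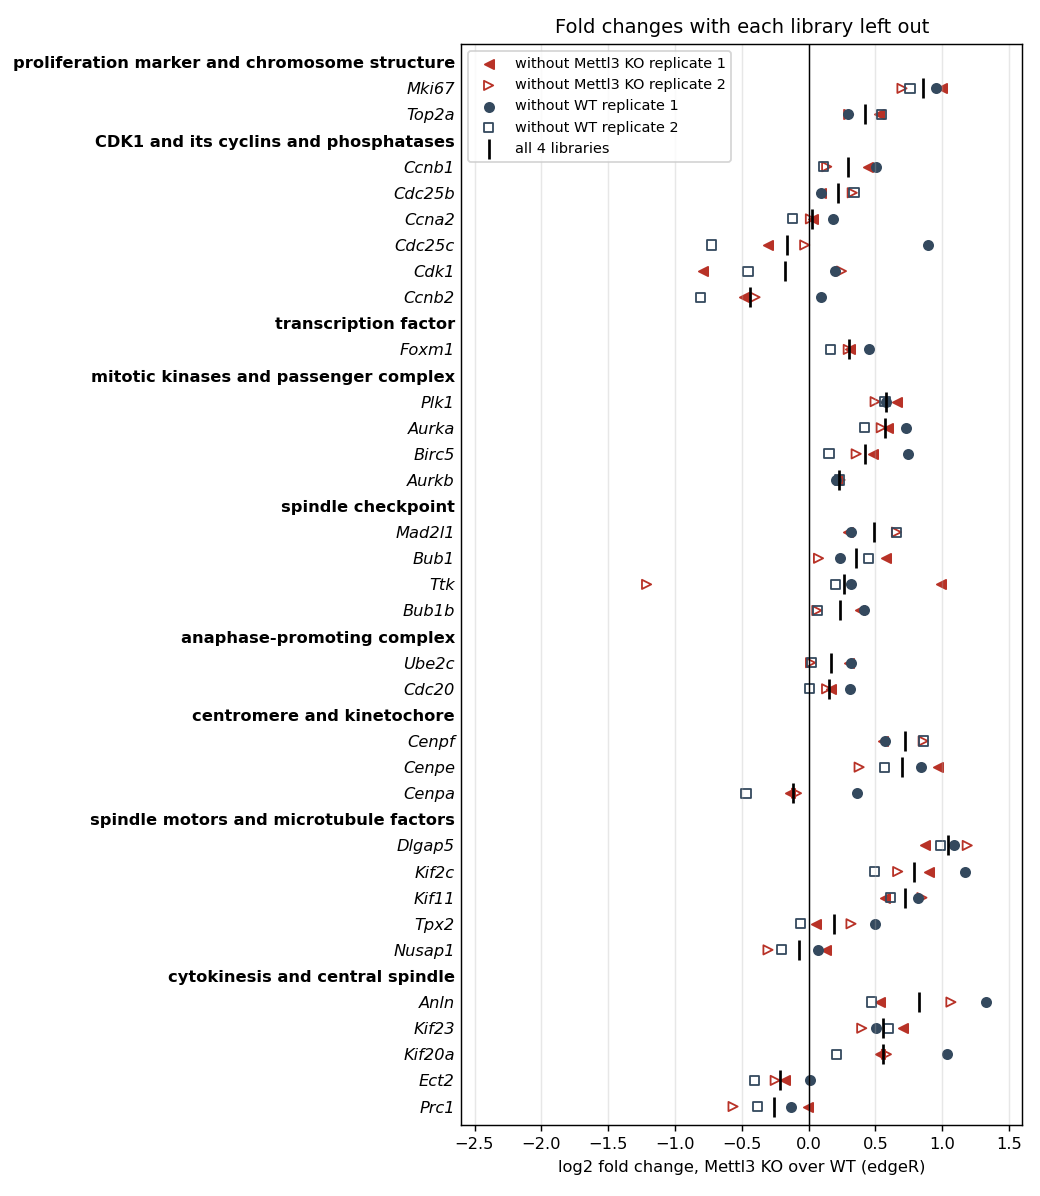
Log2 fold change of each member, knockout over WT, with all 4 libraries (black bars) and with each library left out in turn (symbols), by edgeR. Dlgap5 stays between 0.87 and 1.19 and Mki67 between 0.70 and 1.001, while Ttk runs from -1.21 to 0.99 and Cdc25c from -0.73 to 0.89.

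Levels can be set against each other only per transcript length, here as CPM per kilobase of the longest protein-coding transcript. Which transcript these cells used was not measured, so a gene that used a shorter one would stand too low here. On that scale Cdc20 stood highest in WT, at 66.0 ± 1.05 in the knockout and 59.2 ± 9.02 in WT (CPM per kilobase, mean ± SD, n = 2 each). Cenpa followed at 52.6 ± 1.31 in the knockout and 56.6 ± 22.6 in WT, and Aurkb at 47.5 ± 0.663 in the knockout and 40.6 ± 0.437 in WT. Top2a and Nusap1 had like levels in WT, at 52.3 ± 5.74 and 37.5 ± 7.87 in the knockout and 39.1 ± 4.71 and 39.2 ± 5.34 in WT. Cdc20 and Cenpa could not be ordered within their spread in WT, nor could Cenpa, Aurkb, Nusap1 and Top2a. At the low end, the level of Ccnb2 was 1.65 ± 0.0723 in the knockout and 2.21 ± 0.952 in WT, that of Cdk1 was 1.56 ± 0.763 in the knockout and 1.75 ± 0.553 in WT, and that of Mad2l1 was 2.20 ± 0.397 in the knockout and 1.58 ± 0.259 in WT. The lengths used were 4375 bases for Cdk1 and 7557 bases for Mad2l1. On this scale Cdk1 sat far below its partner Ccnb1, at 29.3 ± 4.33 in the knockout and 23.8 ± 4.66 in WT. Mki67 ranked 22nd of 32 per kilobase in WT, at 14.2 ± 2.07 in the knockout and 7.82 ± 0.778 in WT.

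Fold changes ran with transcript length among the members. Pearson's r between the log2 fold change and the log2 transcript length was 0.51 across the 32 members and 0.03 across all tested genes with a length, where all points share the same 4 libraries. The 16 members of at least 3409.5 bases had a median log2 fold change of 0.46, and the 16 shorter ones 0.22. The log2 fold change was positive in 13 of the 16 longer members and in 12 of the 16 shorter ones. Among the longest annotated transcripts, those of Cenpf (11130 bases), Mki67 (10061 bases), Cenpe (7910 bases) and Mad2l1 (7557 bases) were all higher in both knockout libraries than in both WT libraries. That order was seen in 25.4% of all tested genes. The 2 shortest, those of Cenpa (1466 bases) and Ccnb2 (1531 bases), had negative values, and Ccnb2 held only 59 to 124 counts per library. Removing the trend of counts with length over all genes, an alternative chosen after seeing the data, left the median of the members at 0.27 and called 0 of them. Mki67 then had a log2 fold change of 0.80, against 0.86 without the removal (edgeR adjusted p = 0.0586), and Dlgap5 1.002, against 1.04 (edgeR adjusted p = 0.0535). GGACT, a preferred m6A sequence, occurred in these transcripts at a median of 0.992 per kilobase, against 1.05 over 11701 protein-coding genes, and Cdc20, Cdc25c and Kif20a had none.

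**Figure D4:**
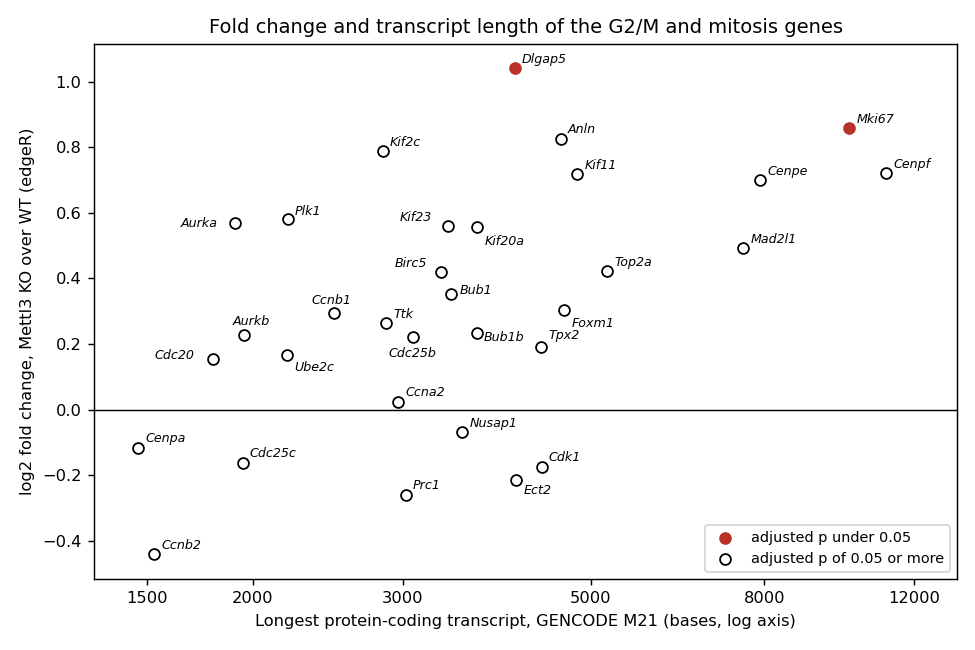
Log2 fold change of each member, knockout over WT, against the length of its longest protein-coding transcript in bases (log axis). The 4 longest transcripts all lie above 0.40, and the 7 members below 0 all lie left of Foxm1 (4652 bases).

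The other genes of mitosis gave a like picture in lists drawn by function. Of 108 further genes in 7 lists (kinetochore, spindle, condensin, passenger complex and cohesion, CDK1 regulators, cytokinesis and the anaphase-promoting complex), edgeR called 3 higher (2.78%, against 1.09% of all tested genes) and 0 lower, 86 had positive log2 fold changes, and the median was 0.33. Separation by genotype was seen for 62 of the 108 with the knockout above and for 8 with the knockout below, against 25.4% and 24.9% of all tested genes. Fbxo5, which encodes EMI1, the inhibitor that holds back the anaphase-promoting complex until mitosis, rose 1.75-fold, with 89.8 and 88.8 CPM in the knockout libraries, against 51.2 and 50.8 CPM in the WT libraries (log2 fold change 0.81, SE 0.16; edgeR adjusted p = 0.0467). Nek2, a centrosome kinase, rose with 64.6 and 53.7 CPM in the knockout libraries, against 29.5 and 28.5 CPM in the WT libraries (log2 fold change 1.03, SE 0.20; edgeR adjusted p = 0.0482). Kif14, a kinesin of the central spindle, rose with 18.7 and 21.5 CPM in the knockout libraries, against 4.09 and 6.97 CPM in the WT libraries (log2 fold change 1.88, SE 0.37; edgeR adjusted p = 0.0490). As with the members, none of these passed with any 1 library left out.

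By function, all 8 condensin genes had positive values (median 0.45), as did 19 of 20 spindle genes (median 0.48) and 9 of 11 cytokinesis genes (median 0.64). The anaphase-promoting complex was near 0, with a median of 0.04 over 17 genes. In the lower direction edgeR gave an unadjusted p under 0.05 for 3 of the 108 genes, against 9.69% of all tested genes. They were the kinetochore genes Zwint and Cenpq and the securin gene Pttg1. DESeq2 called 14 of the 108 higher, against 4.69% of all tested genes, and 1, Cenpq, lower, and limma voom called 0 in either direction. Pttg1, whose product keeps separase inactive, was at 28.02 and 29.1 CPM in the knockout libraries, against 39.7 and 43.5 CPM in the WT libraries (log2 fold change -0.54; edgeR adjusted p = 0.195). In the same list as Pttg1, the passenger complex gene Cdca8 had the smallest p, with a log2 fold change of 0.53 (edgeR adjusted p = 0.187). Zwint and Cenpq had log2 fold changes of -0.65 and -0.73 (edgeR adjusted p = 0.121 and 0.119) and were chosen after their values were seen.

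Genes of DNA replication and S phase, the step before G2, had a smaller median change, and the difference from the members was not tested. Of 38 tested, edgeR called 0, with an unadjusted p under 0.05 for 7 higher and 1 lower. Among all tested genes 10.5% and 9.69% reached it. DESeq2 called Rrm1, Tk1 and Uhrf1 higher, against 4.69% of all tested genes, and limma voom called 0. The median log2 fold change was 0.13, with 23 of 38 positive. Summed over the list, the level was 3996 and 3844 CPM in the knockout libraries, against 3453 and 3403 CPM in the WT libraries, a ratio of means of 1.14. The members' sum divided by the S phase sum was 0.560 and 0.618 in the knockout libraries, against 0.564 and 0.479 in the WT libraries. That quotient overlapped between the genotypes, and as a quotient of sums it is weighted to the genes with the most counts.

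**Figure D5:**
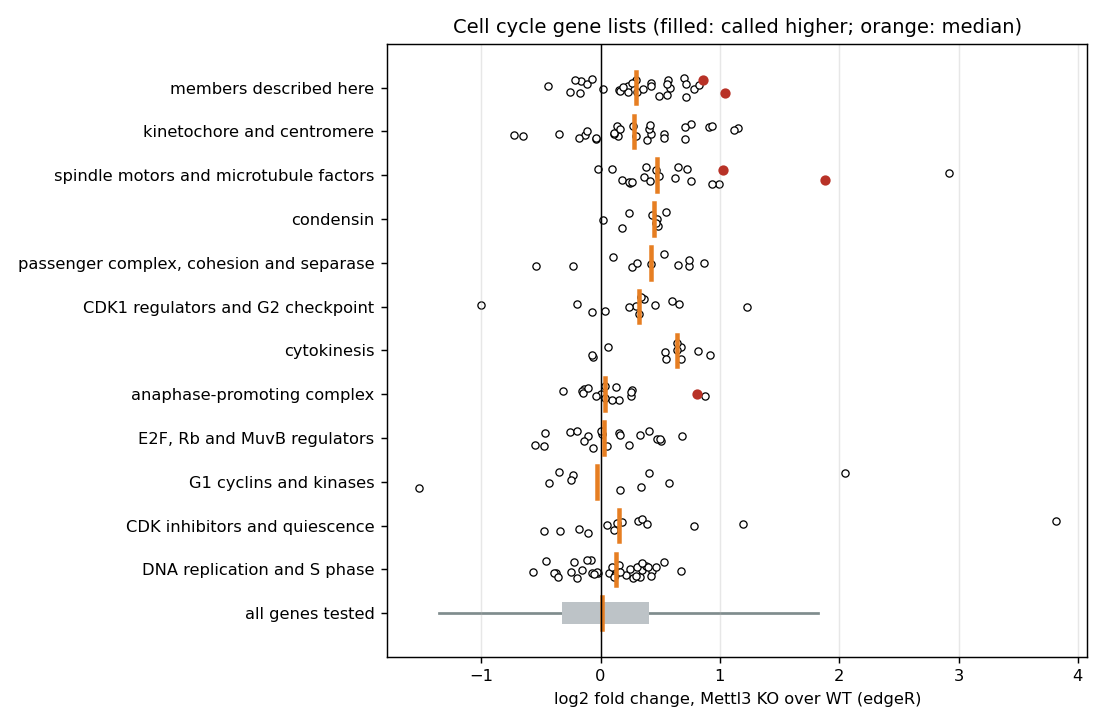
Log2 fold changes, knockout over WT, of the 32 members and of 11 other cell cycle lists, 1 point per gene, filled where edgeR called the gene higher, with orange marks for medians. The bottom bar gives the middle of all tested genes (box, quartiles; line, 5th to 95th percentile); the medians run from -0.03 for G1 cyclins and kinases to 0.64 for cytokinesis genes.

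Markers of cell types that divide to different extents also moved with genotype. Of 8 stage 0 iNKT markers 4 rose, where 1.09% of all tested genes did, and the summed level of the list was 3231 and 3288 CPM in the knockout libraries, against 1888 and 1755 CPM in the WT libraries. Satb1, a chromatin organiser, made up 1608 and 1710 CPM of that sum in the knockout libraries, against 902.4 and 830.9 CPM in the WT libraries. Cd69, an activation marker in the same list, went the other way, with 66.8 and 86.7 CPM in the knockout libraries, against 129.5 and 158.5 CPM in the WT libraries (log2 fold change -0.91; edgeR adjusted p = 0.0512), was called lower by DESeq2 and was chosen after its values were seen. Of 8 NKT2 markers 3 rose, Ccr7, Il6ra and Ccr4, where 1.09% of all tested genes did, and 2 had negative values. DESeq2 called 4 of the 8 higher and 1 lower, and limma voom called 2 higher. The 8 summed to 2456 and 2441 CPM in the knockout libraries, against 2391 and 1814 CPM in the WT libraries. Of 9 NKT1 markers 8 fell, where 1.51% of all tested genes did, with sums of 2333 and 2324 CPM in the knockout libraries, against 4139 and 5218 CPM in the WT libraries. Of 8 NKT17 markers 6 fell, where 1.51% of all tested genes did (91.3 and 102.5 CPM in the knockout libraries, against 468.5 and 387.7 CPM in the WT libraries), and Il17a was at 0 in the knockout. DESeq2 called 8 NKT1 and 7 NKT17 markers lower, and limma voom 6 and 5. For stage 0, DESeq2 called 5 markers higher and 1 lower, and limma voom 4 higher. Over 14185 tested genes DESeq2 called 665 higher and 676 lower, and limma voom 101 and 168. These marker levels differed between the genotypes in the same libraries as the members, and bulk levels do not tell a different share of a subset from a different level per cell.

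CD4+CD8+ thymocyte markers, which include genes of cells that have just stopped cycling, summed to 2378 and 2185 CPM in the knockout libraries, against 1764 and 1713 CPM in the WT libraries. All 9 had positive values, 0 were called by edgeR, and none was at 0. An unadjusted edgeR p under 0.05 was reached by 5 of the 9, against 10.5% of all tested genes in that direction. DESeq2 called 5 of the 9 higher, against 4.69% of all tested genes, and limma voom called 0. The 5 were Rag1, Cd4, Cd8a, Dntt and Cd8b1 (Dntt and Cd8b1 were named after their values were seen). Of 9 tested myeloid and dendritic cell markers edgeR called 3 higher, where 1.09% of all tested genes were. A negative log2 fold change was seen for 2 of the 9. DESeq2 called 2 of them higher, against 4.69% of all tested genes, and limma voom called 1, against 0.712%. The 9 summed to 416 and 467 CPM in the knockout libraries, against 52.5 and 71.6 CPM in the WT libraries. Itgam was at 0 in WT and had too few counts to be tested. The 4 tested B cell markers summed to 31.6 and 24.3 CPM in the knockout libraries, against 7.43 and 15.8 CPM in the WT libraries, with Pax5 at 0 in all libraries. The part of these markers in the level of the G2/M genes was not tested.

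The libraries do not mark strand, and the exons of 5 members overlap other genes in GENCODE M21 by more than 10% of their length: Kif20a by 29.3% (with Cdc23), Ube2c by 22.8% (Tnnc2), Cdc25c by 12.7% (Gm3550), Ccna2 by 12.5% (Exosc9) and Prc1 by 11.1% (Rccd1). The values of these 5 are uncertain, and how many of their reads come from the other gene was not measured. Mki67, Dlgap5 and Kif11 overlap no other annotated exon. Reads could also be shared with the pseudogenes Ccnb1-ps and Ccnb2-ps, which held 14 and 74 counts over the 4 libraries.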

How the data were processed

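The values are raw counts of reads per gene as deposited, 1 column per library, for 53715 versioned Ensembl IDs. STAR 2.6.0a, HTSeq 0.6.1, FastQC 0.11.5, DESeq2 1.18.1 and build mm10 are named in the submitters' processing notes, without their roles; the sources used here do not give the annotation release or strand setting. Without the version suffix 53620 IDs matched GENCODE M21, which gave symbols and transcript lengths; 29 of the 32 members matched with version (not Cdc25c, Kif11 and Kif20a).

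In R 4.3.3, genes were kept by filterByExpr (minimum count 10), scaled by TMM (0.970 to 1.02) and compared over the 4 libraries without covariates by edgeR 4.0.16 (glmQLFit, glmQLFTest, robust, legacy=FALSE; two-sided; Benjamini-Hochberg adjustment). Alternatives were DESeq2 1.42.0, limma 3.58.1 voom, RLE or total-count scaling, other filters, a replicate block, each library left out and, chosen after seeing the data, removal of the trend with transcript length. Scripts were tested on simulated data.

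The members and all gene lists were chosen with earlier results of these data known, so no p-value is given over a list. All members are named; other genes come from the 4 with the smallest p of a pathway list or the 3 of a cell type list and from called genes, except where stated. Replicates differed beyond counting noise (chi-square per degree of freedom 27.0 in the knockout, 42.5 in WT) and were kept separate. PCR reads lacking molecular identifiers are not independent, so intervals cover counting and library error only.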

Additional observations from a re-analysis of the deposited data

How the results depend on the processing

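The median log2 fold change of the members (0.30) ran from 0.20 to 0.44 over all settings and stayed positive, and their summed level kept a ratio of 1.182 to 1.40. The calls were less stable. Against 368 called genes, 154 higher and 214 lower, DESeq2 gave 1341, 665 and 676, and a minimum of 5 CPM in 2 libraries gave 727, 335 and 392. Limma voom called 101 higher, and no filter beyond 1 count 93. Total-count scaling gave 207 higher and 197 lower, with the median of all tested genes at 0.07. With each library left out the counts were 41 to 172 in all, 13 to 40 higher and 26 to 132 lower. Of the members DESeq2 called 4, while 0 were called by limma voom, with no filter, under the replicate block and with the length trend removed (9 to 11 members then had an unadjusted p under 0.05), and 0 with each library left out. The labels do not say that replicate numbers pair the libraries, and deviations of same-numbered libraries correlated at -0.03; the replicate block called 33 genes, 7 higher and 26 lower, with adjusted p = 0.153 for Mki67 and 0.125 for Dlgap5. The cause of these changes was not tested, except that a library left out or a block leaves fewer residual degrees of freedom.

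Signs turned with a library left out for Cdk1 (-0.79 to 0.25), Ccna2 (-0.12 to 0.18), Ccnb2 (-0.81 to 0.095), Cdc25c (-0.73 to 0.89), Ttk (-1.21 to 0.99), Cenpa (-0.47 to 0.36), Tpx2 (-0.062 to 0.50), Nusap1 (-0.30 to 0.13) and Ect2 (-0.41 to 0.0069). They also turned for Cdc25c (0.045) and Ttk (-0.12) with limma voom and for Ccna2 (-0.0048) with the length trend removed. The 5 members under 20 CPM in all libraries, Ccnb2, Cdk1, Cdc25c, Mad2l1 and Kif23, are less certain for their low counts. Spread between replicates limits them as well, as in Cdc25c, which held 384 and 111 counts in the WT libraries.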

Other observations

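Upstream of mitosis, the genes that control entry into the cycle had median log2 fold changes of -0.03 (G1 cyclins and kinases), 0.16 (CDK inhibitors and quiescence genes) and 0.03 (E2F, Rb and MuvB regulators), and edgeR called 0 of them. Of 10 G1 cyclins and kinases, 2 higher and 3 lower genes had an unadjusted p under 0.05 with edgeR. Over all tested genes the shares were 10.5% higher and 9.69% lower. DESeq2 called 2 higher and 2 lower, where it called 665 higher and 676 lower of 14185 tested genes, while limma voom called 0. Ccnd1, the gene of cyclin D1, was at 11.3 and 12.6 CPM in the knockout libraries, against 3.56 and 2.15 CPM in the WT libraries (log2 fold change 2.05, SE 0.45; edgeR adjusted p = 0.0634). Ccnd2, the gene of cyclin D2, was at 805.8 and 726.1 CPM in the knockout libraries, against 964.0 and 1098 CPM in the WT libraries (log2 fold change -0.43, SE 0.10; edgeR adjusted p = 0.0734). These D cyclins thus had opposite signs. Mycn, a growth-promoting transcription factor gene, was at 5.75 and 6.02 CPM in the knockout libraries, against 17.8 and 15.9 CPM in the WT libraries (log2 fold change -1.52; edgeR adjusted p = 0.0680).

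Among 14 tested CDK inhibitor and quiescence genes, edgeR gave an unadjusted p under 0.05 for 2 higher and 1 lower. Over all tested genes 10.5% and 9.69% reached it. DESeq2 called 2 higher and 1 lower, where it called 665 higher and 676 lower of 14185 tested genes, and limma voom called 0. Cdkn1a, the gene of the CDK inhibitor p21, was at 5.25 and 2.77 CPM in the knockout libraries, against 0.142 and 0.438 CPM in the WT libraries (log2 fold change 3.81, SE 0.91; edgeR adjusted p = 0.0635). Btg2, an antiproliferative gene, was at 905.3 and 936.2 CPM in the knockout libraries, against 1173 and 1382 CPM in the WT libraries (log2 fold change -0.47, SE 0.10, edgeR adjusted p = 0.0548). Tob1, in the same list, went the other way, with 53.2 and 54.6 CPM in the knockout libraries, against 27.5 and 35.3 CPM in the WT libraries. Its log2 fold change was 0.79 (SE 0.21, edgeR adjusted p = 0.0977), and DESeq2 called it higher. Of 20 tested E2F, Rb and MuvB regulators, edgeR gave an unadjusted p under 0.05 for 3 higher and 1 lower, against the same 10.5% and 9.69%. DESeq2 called E2f2 higher, against 4.69% of all tested genes, and limma voom called 0. The activators E2f1 and E2f2 had log2 fold changes of 0.69 and 0.51 (edgeR adjusted p = 0.167 and 0.0977). The other genes under that unadjusted p were Rb1, at 0.48, and E2f4, at -0.26 (edgeR adjusted p = 0.174 and 0.214).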
